A study of Mus musculus with 2 samples.

Results

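Imprinted genes are expressed mainly or only from the copy inherited from 1 parent. The 10 imprinted genes described here are active in mouse embryos: H19, Meg3, Cdkn1c and Grb10 are expressed from the maternal copy in most tissues, and Igf2, Dlk1, Peg3, Mest, Peg10 and Plagl1 from the paternal copy. They were taken by name from 49943 RefSeq genes on chromosomes 1 to 19, X and Y, and every peak whose summit lay in the gene or within 10 kb of either annotated end was assigned to it. This gave 163 peaks of the 584724 in library 1 and 0 of the 348 in library 2. Only peaks on these chromosomes could be assigned, 584075 in library 1 and 127 in library 2. No peak was assigned to more than 1 of the 10 genes.

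Both libraries came from ChIP-seq, in which chromatin is recovered with an antibody and its DNA is sequenced, with E10.5 mouse embryo heads that had been snap-frozen. The antibody for both was against green fluorescent protein (GFP, sc-9996), and the labels give no genotype, no GFP-tagged protein, no sex, no pooling and no control for either. The series title names the core histone variant H3.2. The libraries form 1 group and the labels do not say whether 1 or several embryos were used, so no p-value is given; peaks cannot be assigned to the maternal or the paternal copy.

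Imprinting is laid down by DNA methylation that differs between eggs and sperm at imprinting control regions, and the zinc finger protein ZFP57 keeps the methylated copy methylated in the early embryo by binding the letters TGCCGC there. Many imprinted genes lie in clusters with 1 shared control region, such as H19 with Igf2 and Meg3 with Dlk1. Several act on growth of the embryo: IGF2 drives growth, and CDKN1C and GRB10 restrain it.

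Promoter sequence was at hand for 7 of the 10 genes, from a RefSeq table of build GRCm38.p6 that gives 300 bases around each annotated start. H19, Cdkn1c and Peg10 had no entry. The 7 genes had 14 promoters, of which a library 1 peak overlapped 7, in 6 genes, where 37.4% of 32851 annotated promoters were overlapped. The following stretches run 250 bases up to the start, 5′ to 3′, and are shown because they are the promoters with the most bases under a peak. Capitals mark the bases under the library 1 peak.
Mest, first start, + strand, chr6:30733256-30733505: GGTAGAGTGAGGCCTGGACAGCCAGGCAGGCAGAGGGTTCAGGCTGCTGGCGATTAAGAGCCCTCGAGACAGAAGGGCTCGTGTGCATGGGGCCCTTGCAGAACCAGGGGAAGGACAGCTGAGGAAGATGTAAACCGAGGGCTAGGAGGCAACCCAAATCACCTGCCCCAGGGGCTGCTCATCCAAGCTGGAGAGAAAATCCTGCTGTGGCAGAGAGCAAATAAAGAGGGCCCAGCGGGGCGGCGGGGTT
Plagl1, + strand, chr10:13090582-13090831: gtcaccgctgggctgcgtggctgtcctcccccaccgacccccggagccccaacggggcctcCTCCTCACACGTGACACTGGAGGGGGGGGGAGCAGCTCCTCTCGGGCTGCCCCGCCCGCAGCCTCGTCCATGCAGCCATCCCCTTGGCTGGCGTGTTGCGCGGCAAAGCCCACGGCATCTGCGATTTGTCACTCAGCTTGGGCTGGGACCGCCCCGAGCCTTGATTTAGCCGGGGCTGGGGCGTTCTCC
Igf2, innermost start, − strand, chr7:142657497-142657746: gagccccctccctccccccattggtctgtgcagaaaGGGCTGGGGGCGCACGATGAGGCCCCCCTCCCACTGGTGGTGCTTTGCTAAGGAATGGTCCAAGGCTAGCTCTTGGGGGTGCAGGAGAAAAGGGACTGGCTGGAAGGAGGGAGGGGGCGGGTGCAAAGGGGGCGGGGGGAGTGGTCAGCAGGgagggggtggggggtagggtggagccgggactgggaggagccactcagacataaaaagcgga
Peg3, − strand, chr7:6730420-6730669: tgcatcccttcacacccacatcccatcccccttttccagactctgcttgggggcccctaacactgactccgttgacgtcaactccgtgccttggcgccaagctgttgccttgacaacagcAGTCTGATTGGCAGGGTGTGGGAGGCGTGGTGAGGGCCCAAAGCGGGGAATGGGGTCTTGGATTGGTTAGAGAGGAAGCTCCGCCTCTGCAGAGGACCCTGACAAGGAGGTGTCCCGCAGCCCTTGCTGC

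The peak over the first Mest promoter covered all 250 bases and was the widest of the 163, at 858 bp, with its summit 632 bp before the start and a fold of 5.13. Fold here is the enrichment of the summit over background that the authors' peak caller gave. At Plagl1 the peak covered 189 of the 250 bases, its summit lay 131 bp before the start, and its fold was 3.77. The innermost Igf2 promoter had 152 bases under a peak with a fold of 2.31, among the weakest of the 163 peaks. At Peg3, 130 bases were covered by a peak with a fold of 3.77 and its summit 38 bp before the start.

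The remaining overlapped promoters had fewer of the 250 bases before the start under a peak, or none. Overlap was called on all 300 bases. The second Igf2 promoter from the inside had 45 of its 250 bases under a peak with a fold of 4.04. The Dlk1 promoter had 17 under a peak with a fold of 3.77. That peak ran across the Dlk1 start, with its summit 91 bp after it. The first Meg3 promoter was overlapped only past its start, by a peak with a fold of 2.98 and its summit 58 bp inside the gene. Neither Grb10 promoter was overlapped, and the nearest summits lay 917 and 2032 bp inside the gene from their starts. Of the 14 starts, 13 had a summit within 1 kb, as had 64.4% of all annotated starts.

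Letters matching the ZFP57 hexamer TGCCGC, on either strand, were present in 6 of the 14 promoters of 300 bases (42.9%), against 11.6% of all promoters. The letters TATAAA were present in 1 of the 14 (7.14%), against 13.6%. The median number of CpG dinucleotides was 13 in the 14 promoters and 7 in all promoters. In these counts the last pair of Mest promoters, whose starts are 3 bp apart, are nearly the same sequence. A match of letters is not evidence of binding. The following promoters are shown because they hold such matches before the start; capitals mark TGCCGC or its reverse complement and, in Meg3, a run made of TATAAA and its overlapping reverse complement.
Meg3, first start, + strand, chr12:109540746-109540995: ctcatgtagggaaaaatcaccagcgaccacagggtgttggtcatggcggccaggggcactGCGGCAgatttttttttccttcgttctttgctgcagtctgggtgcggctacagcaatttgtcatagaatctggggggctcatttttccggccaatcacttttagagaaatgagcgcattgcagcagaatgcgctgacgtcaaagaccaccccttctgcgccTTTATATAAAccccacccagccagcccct
Mest, second start, + strand, chr6:30737800-30738049: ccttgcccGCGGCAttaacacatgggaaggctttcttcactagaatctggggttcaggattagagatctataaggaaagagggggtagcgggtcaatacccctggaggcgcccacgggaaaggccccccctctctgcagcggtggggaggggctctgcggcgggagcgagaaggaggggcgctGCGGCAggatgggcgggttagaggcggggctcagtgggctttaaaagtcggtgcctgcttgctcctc

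The Mest promoter with 2 matches and 17 CpG was not overlapped, and the nearest summit lay 304 bp inside the gene with a fold of 4.04. The Meg3 promoter held 1 match and 13 CpG, and Plagl1 held 1 match within the bases under its peak and 26 CpG in all. Across all promoters, the share overlapped by a library 1 peak was 20.2% with 0 to 4 CpG, 47.7% with 5 to 9, 51.3% with 10 to 19 and 46.0% with 20 or more. Of the 14 promoters, 8 had 10 or more CpG, and 4 of these were overlapped. Overlap was thus least frequent in promoters with few CpG, and the part of CpG content or of read mapping in these overlaps was not tested.

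MicroRNAs, short RNAs that repress target messages through their seed (bases 2 to 8), lie within several of these genes. The windows held 6 annotated miRNA hairpins, of which 4 were inside 1 of the 10 genes. A library 1 peak overlapped 5 of the 6, where 34.9% of 1005 annotated hairpins were overlapped. Of the pair of H19 peaks with the highest fold, 1 lay over part of the Mir675 hairpin, so the mature sequences are shown with those of 3 other overlapped hairpins. Capitals mark the seed, and the 12 mature miRNAs of the 6 hairpins had 12 different seeds.
mmu-miR-675-5p, in H19: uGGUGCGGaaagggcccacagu
mmu-miR-675-3p, in H19: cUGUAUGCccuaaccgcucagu
mmu-miR-483-3p, in Igf2: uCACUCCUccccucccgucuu
mmu-miR-770-5p, in Meg3: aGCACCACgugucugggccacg
mmu-miR-673-5p, beyond the end of Meg3: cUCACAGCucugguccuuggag

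miR-675 is processed from H19 RNA. The peak at its hairpin had a fold of 4.85, and at the Mir483 hairpin, within Igf2, the peak had a fold of 3.23. At Mir770, within Meg3, the summit lay 18 bp from the middle of the hairpin with a fold of 3.25. The Mir673 hairpin, just beyond the higher end of Meg3, lay under a peak with a fold of 5.39. Mir493, further along the same cluster, lay under a peak with a fold of 3.66. No peak overlapped Mir335, a miRNA within Mest, and the nearest summit lay 619 bp from its middle. Neighbouring hairpins near Meg3 share their surroundings and are not independent.

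All 10 genes had a library 1 peak, as had 93.1% of all annotated genes and 97.0% of autosomal protein-coding genes, so the count is near the background. All 10 also had a peak with a −log10 q (the caller's adjusted significance) of at least 5, as had 83.5% of all genes. The count was also 10 with flanks of 1 kb (77.9% of all genes), with flanks of 50 kb (98.8%) and with any overlap in place of the summit (93.2%). None of the 10 had a library 2 peak, where 0.154% of all genes had one. Library 1 also held peaks in the gene itself for all 10, against 68.6% of all genes. That share takes no account of gene length, and a longer gene has more room for a summit. The nearest library 2 peak to any of the 10 was 338 kb from Grb10, and for the other 9 genes the distance was 3970 kb or more. Library 2 held 33 peaks in all on the 5 chromosomes that carry the 10 genes. The values below are therefore those of library 1, and they have no replicate.

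**Figure D1:**
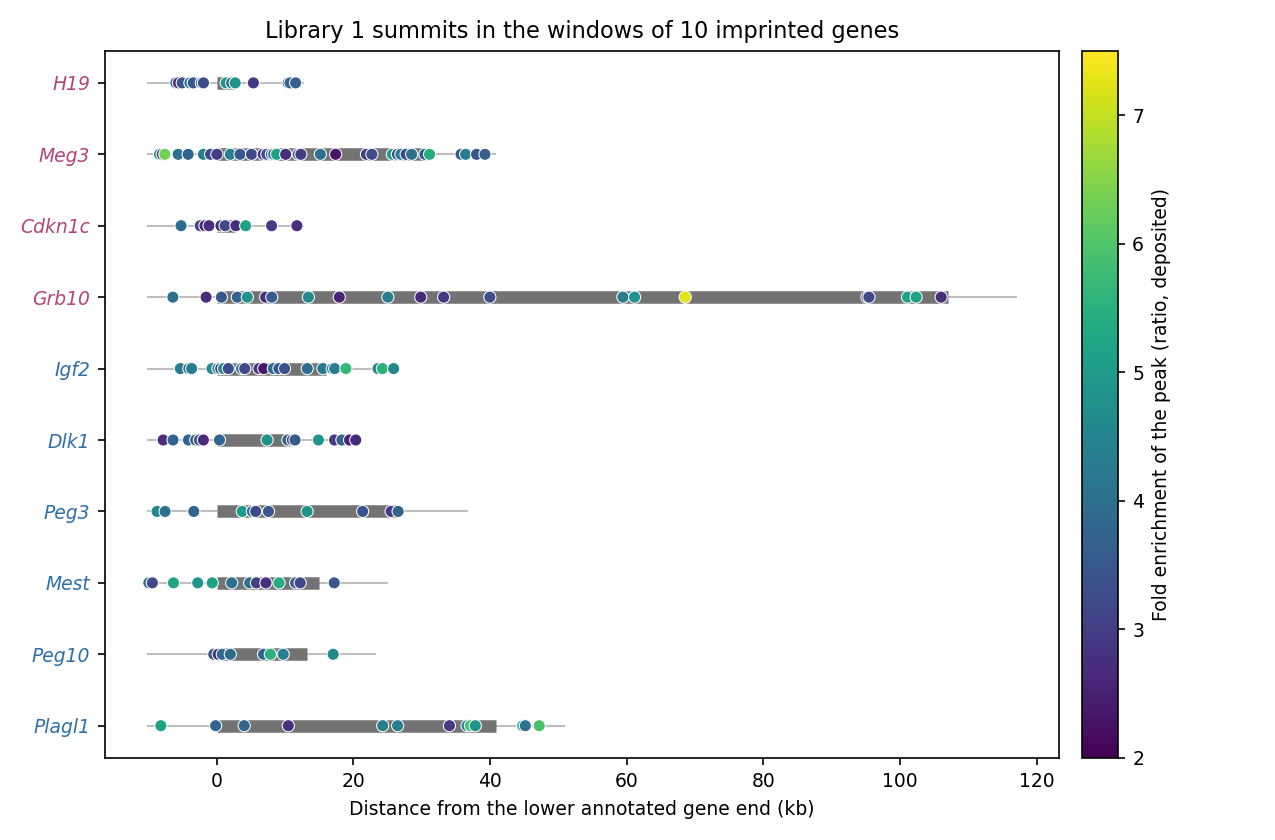
Summits of library 1 peaks along the windows of the 10 genes, in kb from the lower annotated end of each gene, with maternally expressed genes (purple names) above paternally expressed genes (blue names). Thick bars are genes, thin lines the 10 kb on each side, and colour is the deposited fold; the peak of highest fold, 7.27, lies within Grb10, and many points overlap at Meg3 and Igf2.

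Over all of its peaks, library 1 had a median fold of 3.90, a median width of 201 bp and a median pileup of 15, the number of extended reads that overlap at the summit. The 163 peaks had a median fold of 3.77 (range 2.29 to 7.27), a median width of 203 bp and a median pileup of 14 reads (9 to 26). Of them, 103 (63.2%, 95% exact binomial interval 55.3 to 70.6) were called against the genome-wide background, as were 66.2% of all library 1 peaks. A −log10 q of at least 5 was reached by 57 of the 163 (35.0%, 27.7 to 42.8) and by 41.0% of all peaks. The highest folds, of 5.39 and above, were held by 10 of the 163 (6.13%, 2.98 to 11.0) and by 10.8% of all peaks. Intervals cover counting error only.

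Because a longer window holds more peaks, levels between genes are given as summits per 10 kb of window. The median density over the 10 genes was 4.06, against 2.49 over all annotated genes and 3.52 over autosomal protein-coding genes. The density was above the median of all genes in 6 of the 10. The 4 highest densities belonged to Meg3, Igf2, H19 and Dlk1, the members of the H19 with Igf2 and the Meg3 with Dlk1 clusters. The 4 lowest belonged to Peg10, Peg3, Plagl1 and Grb10.

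**Figure D2:**
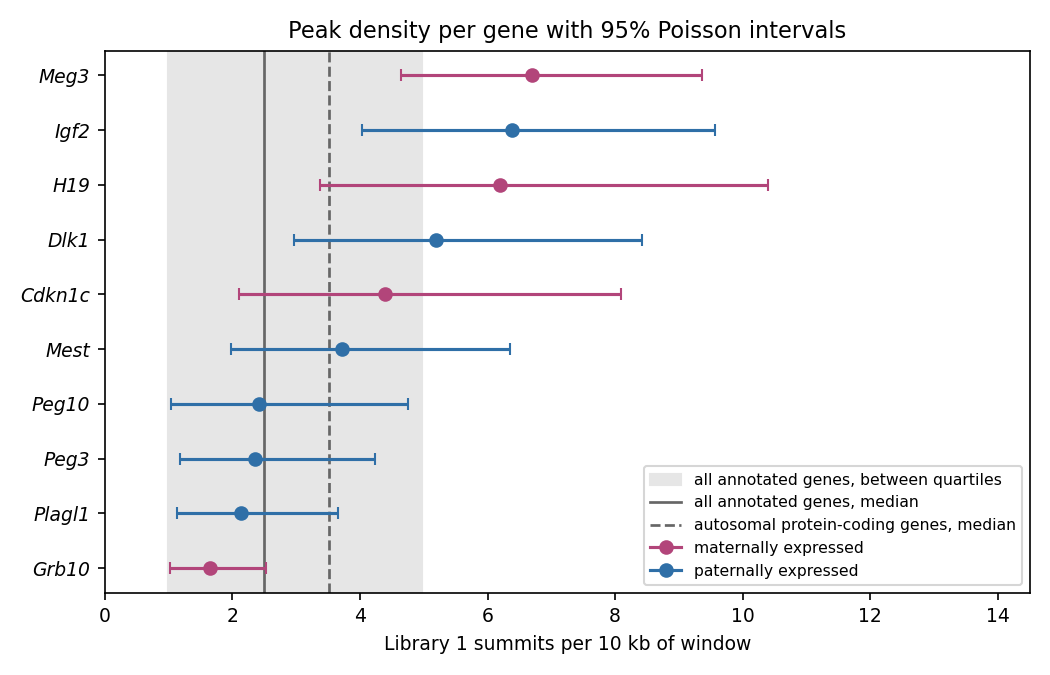
Library 1 summits per 10 kb of window for each gene, highest at the top, with 95% exact Poisson intervals that cover counting error only. The grey band is the range between the quartiles of all annotated genes (0.995 to 4.98), the solid line their median (2.49) and the dashed line the median of autosomal protein-coding genes (3.52); each gene's interval overlaps that of its neighbour in the order, and Meg3 (4.64 to 9.36) lies apart from Grb10 (1.02 to 2.53).

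Among the maternally expressed genes, the non-coding RNAs had the most peaks per length. Meg3, a long non-coding RNA at the start of the maternal transcripts of its cluster, had 34 peaks and a density of 6.70 per 10 kb (95% exact Poisson interval 4.64 to 9.36). That was higher than in 86.1% of all genes. H19, a non-coding RNA that carries miR-675, had 14 peaks and a density of 6.19 (3.38 to 10.4), higher than in 83.2% of genes. Cdkn1c, which encodes the cyclin-dependent kinase inhibitor p57, had 10 peaks and a density of 4.40 (2.11 to 8.09). Grb10, which encodes an adaptor that dampens insulin and IGF receptor signalling, had 21 peaks but the lowest density, 1.65 (1.02 to 2.53), above 36.7% of genes. Against autosomal protein-coding genes the shares were lower, at 79.8% for Meg3, 75.9% for H19, 59.5% for Cdkn1c and 26.4% for Grb10. Grb10 is expressed from the paternal copy in neurons of the mouse, so heads can hold both patterns.

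Among the paternally expressed genes, Igf2, the growth factor gene, led with 23 peaks and a density of 6.38 (4.04 to 9.57), above 84.3% of genes. Dlk1, which encodes a membrane protein of the Notch ligand family, had 16 peaks and a density of 5.19 (2.96 to 8.42). Mest, which encodes a hydrolase-like protein of mesoderm, had 13 peaks and a density of 3.72 (1.98 to 6.36). These genes lay in the upper part of the distribution of all genes, at 76.4% for Dlk1 and 63.5% for Mest. Among autosomal protein-coding genes the shares were lower, at 77.3% for Igf2, 67.2% for Dlk1 and 52.2% for Mest. Peg10, a gene derived from a retrotransposon and needed in the placenta, had 8 peaks and a density of 2.41 (1.04 to 4.75). Peg3, a zinc finger gene, had 11 peaks and a density of 2.36 (1.18 to 4.23), and Plagl1, a zinc finger gene that slows the cell cycle, had 13 peaks and a density of 2.14 (1.14 to 3.65). The last 3 genes lay close to the median of all genes, at 48.1%, 47.1% and 44.5%. They lay lower among autosomal protein-coding genes, at 37.2%, 36.3% and 33.4%.

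The maternally expressed genes had a median density of 5.30 (range 1.65 to 6.70) and the paternally expressed genes 3.06 (2.14 to 6.38). The ranges overlap widely, and with all peaks and window lengths added up the densities were 3.54 per 10 kb (2.80 to 4.42) in the 4 maternally expressed genes and 3.46 (2.76 to 4.29) in the 6 paternally expressed genes. The gap between the medians is therefore not present in the pooled value, in which the long Grb10 window weighs most. Without Grb10 the pooled value of the maternally expressed genes was 6.04 per 10 kb (4.58 to 7.80). Grb10 has the lowest density and the longest window of the 4, so leaving it out raises the value by construction. No paternally expressed gene was left out in the same way, so this value is not comparable with the 3.46 of the paternally expressed genes. At a −log10 q of at least 5 the medians were 1.2 and 1.17. Genes are not replicates, and no test of this difference was made.

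The 5 genes with the densest windows also had the densest surroundings, in another order among themselves. Density in the 500 kb on each side of a window was 4.41 at H19, 4.62 at Igf2, 4.52 at Meg3, 4.97 at Dlk1 and 5.30 at Cdkn1c. It was lower around Mest (3.18), Peg3 (2.49), Plagl1 (2.25), Peg10 (1.68) and Grb10 (1.65). The surroundings of H19 and Igf2, and those of Dlk1 and Meg3, largely share the same bases. Over all annotated genes, window density and neighbourhood density had a Spearman correlation of 0.82, a description across genes that share libraries and chromosomes. Grb10 had the lowest density although chromosome 11 had the highest of the 21 chromosomes (3.36 per 10 kb). Chromosome 7, which carries H19, Igf2, Cdkn1c and Peg3, had 2.78.

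Relative to the neighbourhood, the ratio was 1.48 at Meg3, 1.43 at Peg10, 1.40 at H19 and 1.38 at Igf2. It was 1.17 at Mest, 1.04 at Dlk1 and 1.0 at Grb10. Peg3 and Plagl1 had 0.949 and Cdkn1c had 0.830, so these 3 windows held fewer summits per length than their surroundings. A ratio above 1 was found for 7 of the 10 genes, Grb10 among them only before rounding, and for 50.5% of all genes. The median ratio was 1.11 in the 10 genes and 1.01 in all genes, whose quartiles were 0.643 and 1.41.

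**Figure D3:**
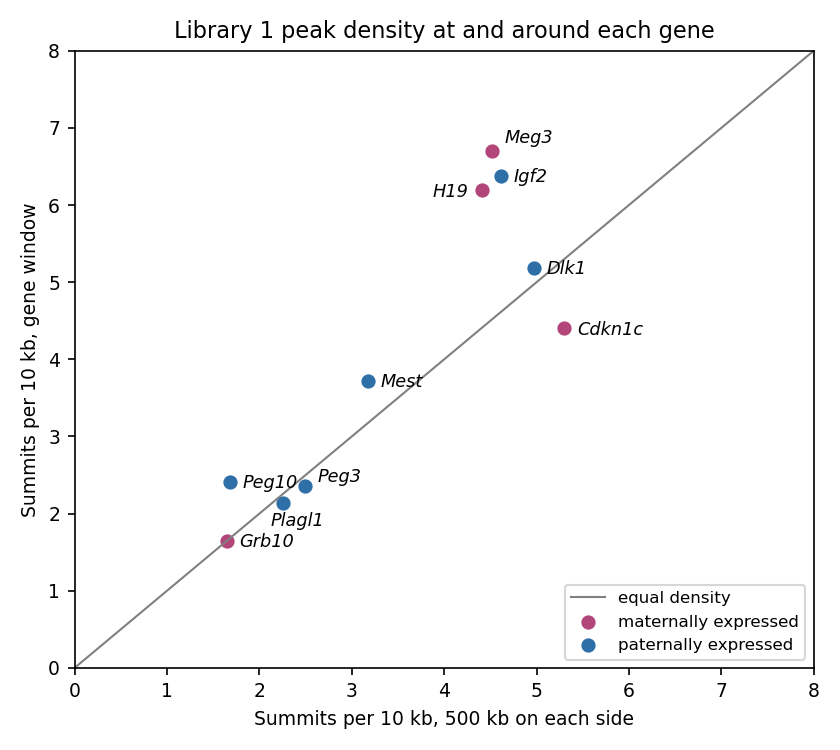
Library 1 summits per 10 kb in each gene's window (vertical) against the 500 kb on each side of it (horizontal), with maternally expressed genes in purple and paternally expressed genes in blue. Meg3, H19, Igf2 and Peg10 lie above the line of equal density and Cdkn1c lies below it (0.830 of its surroundings).

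Within the windows, summits were denser in the gene than in the flanks for 8 of the 10 genes, where 46.0% of all genes showed this. Genes with no summit in the gene cannot show it, and all 10 genes had one. Among the 34248 annotated genes with a summit in the gene, 22973 showed it, so the 8 of 10 is not set apart from that background. The 10 windows held 90 summits in genes and 73 in flanks. Igf2 had 8.10 summits per 10 kb in the gene and 5.0 in its flanks, and Meg3 had 7.16 and 6.0. Peg10 had 4.54 and 1.0, while Dlk1 (2.76 and 6.50) and Plagl1 (1.96 and 2.50) had more in the flanks. For H19 and Cdkn1c the gene is under 3 kb and held 2 summits each, so their gene densities rest on very few peaks. That of Dlk1 rests on 3 summits. Strand was taken from the promoter entries, so H19, Cdkn1c and Peg10 are left out here. For the other 7 genes, the upstream flanks held 26 summits and the downstream flanks 25. The 10 kb beyond the annotated upstream end held 0 summits at Peg3 and at Grb10; the summit at the Peg3 promoter lies just inside that end and counts as in the gene. Summits numbered 5 at over 9 to 10 kb from a gene, just inside the window, and 11 at over 10 to 11 kb, just outside it.

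The Grb10 window showed the largest spacing among the 10, a stretch of 26.6 kb without a summit that ran between 68.6 and 95.2 kb from the lower end. The Plagl1 gene held a stretch of 13.8 kb, and in the other 8 windows the longest distance between neighbouring summits was between 3.79 kb at Cdkn1c and 8.12 kb at Peg3. Library 1 peaks covered 19.4% of the Igf2 window, 17.9% of H19, 16.1% of Dlk1 and 14.6% of Meg3. They covered 3.19% of the Grb10 window and 5.05% of Plagl1.

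Intervals between clustered genes also held many summits; they include flanks counted above. Between H19 and Igf2, over 72.6 kb that include the control region upstream of H19, library 1 had 45 summits or 6.20 per 10 kb (4.52 to 8.29), with a highest fold of 4.88. The genes themselves had 7.64 (H19, from 2 summits) and 8.10 (Igf2). Between Dlk1 and Meg3, over 77.7 kb that include the intergenic control region of the cluster, library 1 had 50 summits or 6.44 per 10 kb (4.78 to 8.49). Within the genes the values were 2.76 (Dlk1, from only 3 summits) and 7.16 (Meg3). The highest fold between Dlk1 and Meg3 was 6.32, at the peak that is also the strongest of the Meg3 window. Sgce and Peg10 are divergent genes with adjacent starts and a shared control region. The Peg10 gene had 6 summits or 4.54 per 10 kb (1.67 to 9.88) and the Sgce gene 13 or 1.78 (0.950 to 3.05). The 101 bases between these genes were overlapped by 0 library 1 peaks, and the nearest Peg10 summits lay at -0.405 kb (fold 3.50) and 0.249 kb (fold 2.69) from its lower annotated end, where negative is outside the gene. Library 2 had 0 summits in both intervals and in both of these genes.

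The strongest single peak lay within Grb10. Its position was chromosome 11, 11998971 to 11999162, and it had a fold of 7.27, a −log10 q of 13.1 and a pileup of 26 reads (95% exact Poisson interval 17.0 to 38.1), and 0.528% of library 1 peaks had a fold as high. The second highest fold in Grb10 was 5.12. The strongest Meg3 peak, at chromosome 12, 109533384 to 109533536, lay 7.56 kb before the gene and had a fold of 6.32 and 23 reads at the summit (14.6 to 34.5). The next highest fold at Meg3 was 5.39.

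Plagl1 had a pair of peaks at a fold of 5.92, and the one named by its lower start lay in the gene at chromosome 10, 13127714 to 13128065, with a pileup of 21 (13.0 to 32.1). Igf2 had its highest fold, 5.66, before its outermost start at chromosome 7, 142669635 to 142669945, with a pileup of 20 (12.2 to 30.9). The Peg10 peak, at chromosome 6, 4754698 to 4755408, was 711 bp wide; its fold was 5.51 and its pileup 23 (14.6 to 34.5). The intervals of these pileups overlap each other.

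In Mest the highest fold was 5.39, at chromosome 6, 30742467 to 30742749, with a pileup of 19 (11.4 to 29.7). Cdkn1c reached 5.12, at chromosome 7, 143462474 to 143462753, beyond its higher end, and its other peaks had folds of at most 3.95. Peg3 reached 5.0 at a peak 794 bp wide in the gene, chromosome 7, 6707589 to 6708382, with a pileup of 25 (16.2 to 36.9) over a local background of 4.20 reads, where the genome-wide background was 2.71. H19 and Dlk1 had the lowest maxima, 4.85 each, and 20.7% of all library 1 peaks had a fold as high. At H19 a pair of peaks shared this fold and a pileup of 17, at chromosome 7, 142576815 to 142577124 in the gene and 142578079 to 142578329 at its higher end. The Dlk1 peak was at chromosome 12, 109467014 to 109467509. H19, Cdkn1c, Dlk1 and Peg3 had no peak among the 10% of library 1 peaks with the highest fold, and 56.3% of all genes had one. A window with more peaks has more chances of a high maximum. The gene table does not separate exons from introns.

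**Figure D4:**
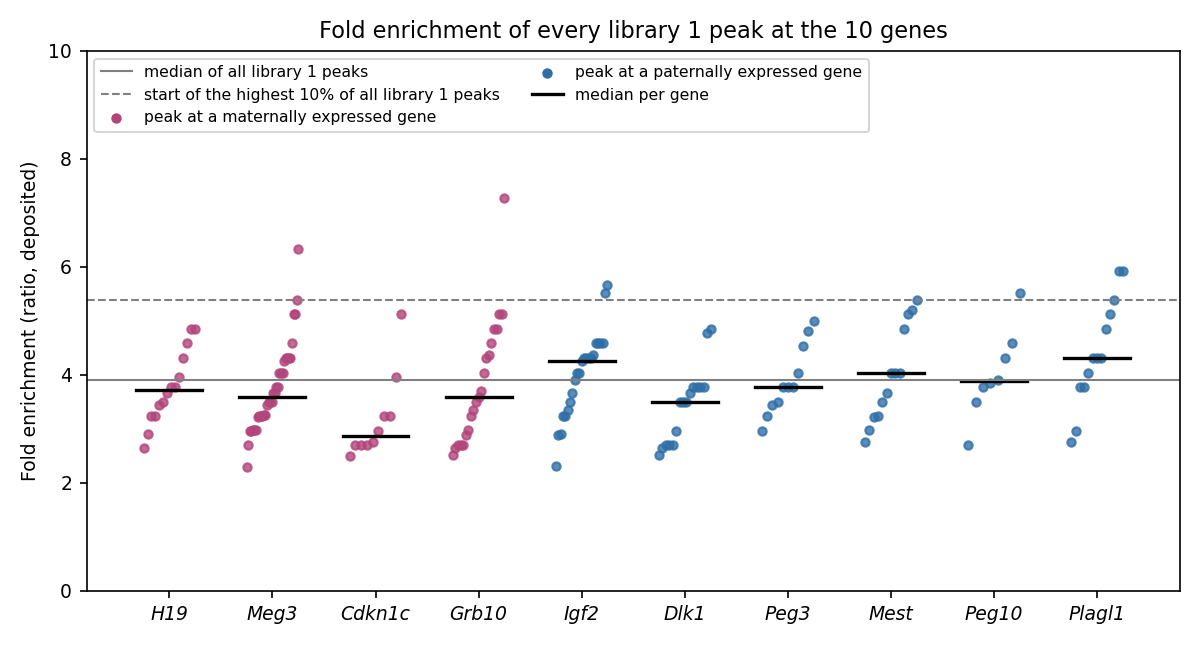
Deposited fold of each of the 163 library 1 peaks, by gene, with maternally expressed genes in purple on the left and paternally expressed genes in blue on the right; black bars are medians per gene. The grey lines mark the median of all library 1 peaks (3.90, solid) and the start of the highest 10% (5.39, dashed), and 10 of the 163 peaks lie at or above the dashed line.

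Median folds per gene ran from 2.86 at Cdkn1c to 4.31 at Plagl1. The median over peaks was 3.50 at the maternally expressed genes (79 peaks, range 2.29 to 7.27) and 3.81 at the paternally expressed genes (84 peaks, range 2.31 to 5.92). A −log10 q of at least 5 was reached by 23 of the 79 (29.1%, 19.4 to 40.4) and by 34 of the 84 (40.5%, 29.9 to 51.7). The intervals overlap. Igf2 had 12 such peaks of 23 and Plagl1 9 of 13, whereas Dlk1 had 2 of 16 and Cdkn1c 1 of 10. Plagl1 thus had few peaks per length but the largest share at this threshold among the 10 genes, and Dlk1 had many peaks per length with few at it. These shares rest on 13 and 16 peaks of library 1, and no intervals were computed for single genes.

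Other imprinted genes, a list of 45, were examined in the same way. Each had a library 1 peak, and none had a library 2 peak. Their median density was 2.53 per 10 kb, against 2.49 in all annotated genes and 3.52 in autosomal protein-coding genes, with 24 of 45 above the median of all annotated genes. All 45 are autosomal. The median ratio to the neighbourhood was 1.1. In 7 of the 45 the window overlapped that of 1 of the 10 genes and can hold the same peaks. Windows within the list also overlap each other in places, as at Igf2r and Airn.

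The parental labels of these genes are those of the list, and expression by copy in heads was not examined. Among the 20 genes listed as maternally expressed, the median density was 2.87. The highest values were 8.39 at Osbpl5, an oxysterol-binding protein gene, 8.33 at Phlda2, which restrains growth of the placenta, and 7.45 at the transporter gene Slc22a18. All 3 lie in the same cluster as Cdkn1c. The windows of Phlda2 and Slc22a18 overlap and can hold the same peaks, and 2 Slc22a18 peaks also lie in the Cdkn1c window. The lowest were 0.392 at Ube3a, the ubiquitin ligase gene of Angelman syndrome, 0.431 at Tfpi2 and 0.768 at Copg2. Of the 13 Copg2 peaks, 7 also lie in the Mest window. Among the 25 genes listed as paternally expressed, the median was 2.51. The highest values were 9.15 at Dio3, a thyroid hormone deiodinase gene at the far end of the Dlk1 cluster, 8.17 at Mcts2 and 6.88 at Peg13. The lowest were 0.718 at Snrpn, 0.886 at Mkrn3 and 1.17 at Snurf, all in the cluster of Prader-Willi syndrome. Snurf lies within the annotated Snrpn gene, so its peaks are also counted at Snrpn.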

How the data were processed

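Both libraries are GFP ChIP-seq of heads of mouse embryos at E10.5, per the labels. The deposited lists are MACS2 narrowPeak tables, 1 per library. Named in the submitters' processing notes are MACS2 2.1.0, Bowtie 1.1.2, Trimmomatic 0.33, bcl2fastq 2.17 and the builds mm10 and hg38, without roles or settings; a control is not given in the sources used here. The deposited score, not used further, is the −log10 q times 10 without its decimals. The deposited fold is a ratio, which the values fit as the pileup at the summit plus 1 over the background plus 1, with a genome-wide or a local background, and the −log10 p and −log10 q are also the authors'. These values describe peaks within a list.

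Gene ends came from a RefSeq table of GRCm38.p6 (mm10), which holds all 10 genes. A summit is the peak start plus the deposited offset, counted from 1. Pileup and background were solved from fold and −log10 p, with only whole pileups tried. The −log10 p was reproduced within a tolerance of 0.002 for 100% of peaks in each library. On 3000 simulated peaks 100% were recovered. These were made with the same formula, so they check the solving and cannot check the formula. Read depth itself was not used here. Percentiles are shares of all annotated genes with a lower value or, where named, of autosomal protein-coding genes. The genes and lists, named by rule, were chosen with earlier results of these data known. All 10 genes and the peak of highest fold of each are named. At Mest, Igf2 and Dlk1 another peak had the highest −log10 q (9.48, 9.16 and 7.08). Of the other imprinted genes, the 3 highest and 3 lowest densities per list are named. Nespas matched the table as Gnasas1. No tests were made: the design has 1 group. Alternatives were other flanks, stricter peaks, any overlap, Grb10 left out and each library alone. Python 3.11.15 with numpy 2.4.6, pandas 2.3.3 and scipy 1.17.1 was used.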

Additional observations from a re-analysis of the deposited data

How the results depend on the processing

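All 10 genes kept a library 1 peak and none gained a library 2 peak in the gene alone, with flanks of 1 or 50 kb, at a −log10 q of at least 5, and with any overlap of 1 bp, where between 68.6% (gene alone) and 98.8% (50 kb) of all genes had one; with only the highest 10% of peaks by fold, an alternative chosen after seeing the data, 6 genes had one, as had 56.3% of all genes. The count of genes with a peak in either library ranged from 0 to 10 when each library was left out: it rests on library 1. The 163 peaks became 90 in the gene alone, 101 with 1 kb, 442 with 50 kb and 57 at the stricter q. The median density of 4.06 became 3.43 with 50 kb and 1.17 at the stricter q. That of maternally expressed genes (5.30) became 7.25 in the gene alone and 1.20 at the stricter q, and 6.19 without Grb10; the pooled value of 3.54 became 6.04 without it. That of paternally expressed genes (3.06) became 4.25 with 1 kb, 2.07 with 50 kb and 1.17 at the stricter q. Maternally expressed genes had the higher median in each of these settings, narrowly at the stricter q. The settings draw on the same library 1 peaks and are not independent. With 50 kb the windows of H19 and Igf2, and those of Dlk1 and Meg3, overlap, so the same peaks can enter both medians. Pooled over all genes of each set, the values were close, at 3.54 for maternally and 3.46 for paternally expressed genes. The median percentile of the 10 genes was 66.7% among all annotated genes and 55.8% among autosomal protein-coding genes. The pooled value without Grb10 and the comparison with protein-coding genes were also chosen after seeing the data. No paternally expressed gene was left out in the way Grb10 was. The settings change by construction how many peaks and bases enter, and no other cause was tested. No paired analysis was possible because the libraries form 1 group. Pileups of 9 to 26 reads limit the precision of every fold.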
